A study of Mus musculus and Homo sapiens with 22 samples.

Results

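The 10 genes described here encode the core of calcium handling in heart muscle: Ryr2, Trdn, Casq2, Itpr2, Cacna1c, Slc8a1, Atp2a2, Pln, Jph2 and Camk2d. They were chosen by name for their role, with no m6A value in the rule but with earlier results of these data known. All 10 had at least 1 exonic N6-methyladenosine (m6A) site in the deepest mouse heart list, as did 8411 of 21951 coding genes (38.3%). An exonic site in any of 5 mouse lists was found for 10156 genes.

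The sites come from miCLIP2, in which UV light ties an anti-m6A antibody to the RNA and reverse transcription stops next to the modified A. The m6Aboost classifier of the study then separated m6A sites from background peaks. Poly(A)+ RNA of mouse heart tissue was used at 1 µg (1000 ng), 300 ng, 100 ng and 50 ng, with 1 library an input, so that no difference between inputs has a replicate check. The sample titles write the 3 lower inputs in µg, whereas the list names and the paper give ng. The labels give no strain, age or genotype of the heart, and a piece of heart holds muscle, vessel and connective tissue cells together. The contrast was a site list of mouse embryonic stem cells (mESCs) of wild-type (WT) genotype, based on 3 replicates, and RNA-seq gene counts of 3 WT and 3 Mettl3 knockout (KO) mESC libraries. Mettl3 is the catalytic subunit of the m6A writer complex. Whether the KO cells are 1 clone is not given in the sources used here.

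In a heartbeat, calcium enters through the L-type channel of the surface membrane and opens ryanodine receptors of the sarcoplasmic reticulum, which release stored calcium onto the myofilaments. The muscle relaxes when the calcium pump of the reticulum takes calcium back up and the sodium-calcium exchanger removes it from the cell. The sites lie mostly at a DRACH motif, where D is A, G or U, R is A or G and H is A, C or U, and m6A in mRNA is known to gather in long exons and near stop codons.

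The windows below show the sites on which the values turn: the best ranked site of each gene, some of the sites still found at the lowest inputs, and the site shared with mESCs. Each is 21 nt of the GRCm38.p6 genome (RefSeq), read 5′ to 3′ on the strand of the gene and written as DNA, with the pentamer centred on the modified A in capitals.
Ryr2 exon 105, 3′ UTR (chr13:11554134-11554154, minus strand): acacccatGGACAgcttcccc
Ryr2 exon 90, coding (chr13:11595792-11595812, minus strand): tccaagagAGACTtccacaaa
Trdn exon 8, 3′ UTR (chr10:33196195-33196215, plus strand): aactgaaaAGACTaaaattaa
Casq2 exon 11, 3′ UTR, best rank (chr3:102145620-102145640, plus strand): cactgcagGGACAgaagggga
Casq2 exon 11, 3′ UTR, also at 100 ng (chr3:102145667-102145687, plus strand): ccattgagGAACAatcagccc
Itpr2 exon 56, 3′ UTR (chr6:146111420-146111440, minus strand): tagggcacAGACTctctcggt
Cacna1c exon 47, coding (chr6:118594006-118594026, minus strand): ccttttgtGAACTgcagggac
Slc8a1 exon 11, coding, best rank (chr17:81388779-81388799, minus strand): agggccccGGACTgccaagct
Slc8a1 last exon, 3′ UTR, also at 100 ng (chr17:81388051-81388071, minus strand): acagtggtGAACTgcctccag
Atp2a2 exon 8, coding, in all 5 lists (chr5:122469468-122469488, minus strand): agctcttgGAACTcgtaggat
Pln exon 2, 5′ UTR (chr10:53343822-53343842, plus strand): acttagaaAAACTtgtctccc
Pln exon 2, 3′ UTR (chr10:53344188-53344208, plus strand): ttgtaaacAAACTttacagtg
Jph2 exon 1, coding, also at 50 ng (chr2:163397436-163397456, minus strand): acgggcacGGACTgtgcaccg
Jph2 exon 2, coding, also at 100 ng (chr2:163376212-163376232, minus strand): gtggctccGGACTcaccggcg
Camk2d exon 19, 3′ UTR (chr3:126842984-126843004, plus strand): aacttccgTTACTgttggcaa
The last window is the only one here outside DRACH, because its second base is T. Of the 116 exonic sites of the 10 genes at 1 µg, 100 (86.2%) lay at a DRACH motif, against 93.1% of all sites of that list. GAACT was the most frequent pentamer among them with 19.8% of the sites (14.3% in the list), ahead of GGACT with 12.9% (21.5% in the list) and AGACT with 10.3% (12.9%).

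Exons of the 10 genes carried 116 of the 46421 sites at 1 µg, and their introns a further 27. Of 21951 annotated coding genes, 38.3% had an exonic site in this list, with a median of 4 sites, whereas the 10 genes had a median of 11. At 300 ng, 8 of the 10 genes held 40 sites (16.0% of coding genes had a site), at 100 ng 6 genes held 11 sites (3.17%), and at 50 ng 4 genes held 5 sites (0.861%). The genes therefore took up 0.25%, 0.452%, 0.989% and 2.02% of the sites of the 4 lists, from the highest to the lowest input. In mESCs, 1 of the 10 genes had sites, Atp2a2 with 3, where 30.1% of coding genes had one. The lists hold no transcript level for heart, so site number and transcript abundance cannot be told apart, nor in bulk tissue can fewer cells of a type and less RNA per cell.

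**Figure D1:**
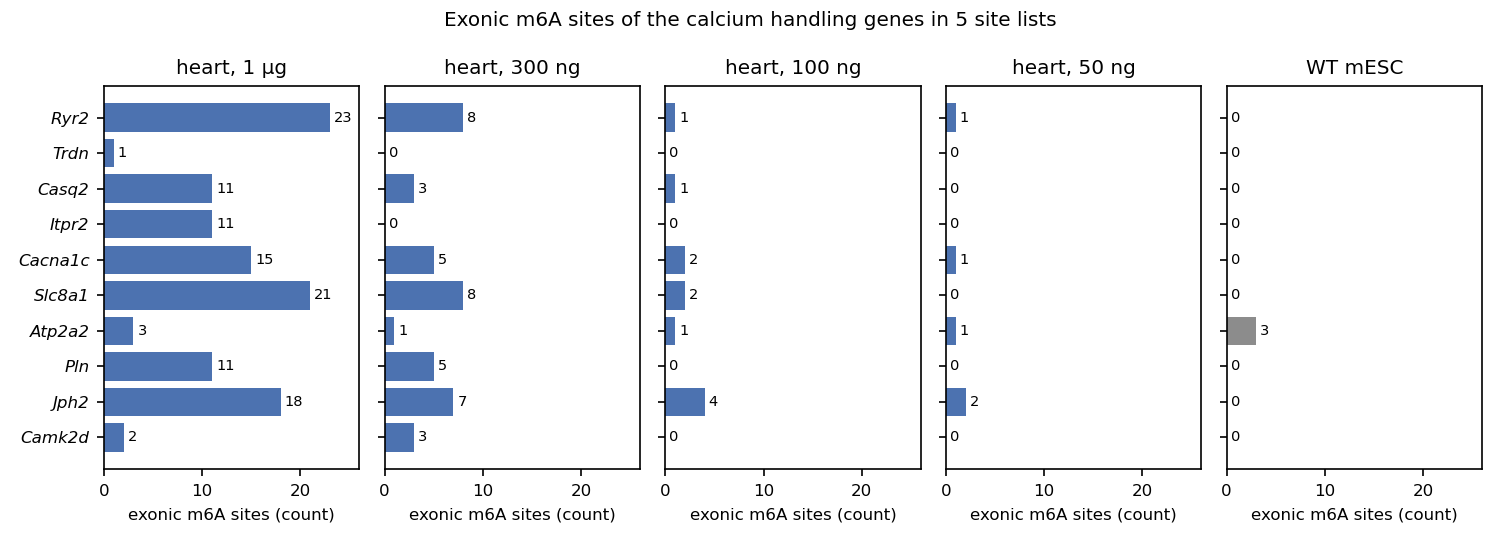
Exonic m6A sites (count, x axis) of each of the 10 genes (y axis) in the 4 heart lists and the WT mESC list, with the count printed beside each bar. Ryr2 and Slc8a1 have the longest bars at 1 µg (23 and 21 sites), Jph2 has the most at 100 ng (4) and at 50 ng (2), and Atp2a2 is alone in the mESC list with 3.

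The release channel had the most sites of the 10 genes. Ryr2 (chr13:11553102-12106945, minus strand), the ryanodine receptor of heart muscle, had 23 exonic sites at the highest input, 8 at 300 ng and 1 each at 100 and 50 ng. It ranked 90 of the 8411 coding genes with a site at 1 µg. Its transcript Ryr2-201 is 16814 nt long and has 105 exons, 88 of them under 200 nt and 4 of 400 nt or more, which together make up 24.7% of its length. Exon 90 (1298 nt) held 7 sites and the last exon (1510 nt) held 9, while exon 37 (799 nt) held 1. Of the other exons, exon 31 (353 nt) held 2 sites, and exons 40, 53 and 84 held 1 each. The remaining site lay in the last exon of a shorter transcript, at percentile 3.996 of the list by score. In exon 90 all 7 sites were coding, and each ranked above the 88th percentile of the list, while those in the last exon ran from 43.4 to 99.8 and the site in exon 37 lay at the 76.4 percentile. Of the exons under 400 nt, exon 31 had its sites at the 87.9 and 91.2 percentiles, and exons 40, 53 and 84 had theirs between 28.2 and 49.6.

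Calsequestrin 2, the calcium store protein of the reticulum, is encoded by Casq2 (chr3:102086415-102146514, plus strand). It had 11 sites at 1 µg, 3 at 300 ng and 1 at 100 ng. Its last exon (1318 nt) held 10 of the 11 sites, 1 of them coding, at -31 nt from the stop codon (negative values lie before it), and 9 in the 3′ UTR from 56 to 998 nt after it. The other site lay in the coding part of exon 1 (458 nt), and the 9 exons under 200 nt held none. Trdn (chr10:33080554-33476709, plus strand), which encodes triadin, the anchor of calsequestrin at the release channel, had 1 site at 1 µg, in the 3′ UTR of Trdn-208 at the 94.9 percentile. No Trdn site was in the lists of lower input.

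Itpr2 (chr6:146108299-146502223, minus strand), an inositol trisphosphate receptor and the other release channel of the list, carried its sites in another way. It had 11 sites at 1 µg, as many as Casq2 and Pln, and all 11 lay in the 3′ UTR of its last exon (3459 nt). None of the 198 DRACH motifs in its other exons, all under 400 nt, had a site, which allows a share of up to 1.90% (Wilson upper bound). Its sites formed one group from 156 to 688 nt and another from 2831 to 3185 nt after the stop codon. They ranked low, with a median percentile of 16.9 and a highest of 81.3, and none was found at 300 ng or below.

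Of the channels and transporters of the surface membrane, Cacna1c (chr6:118587240-119196418, minus strand), the pore subunit of the L-type channel, had 15 sites at 1 µg, of which 5 recurred at 300 ng, 2 at 100 ng and 1 at 50 ng. Its last exon is 6955 nt long, but the 9 sites in it lay between -285 and 994 nt from the stop codon, 6 of them coding. Of the other sites, 2 lay in exon 7 (197 nt), 1 each in exons 24, 42 and 46 (108 to 353 nt), and 1 in the first exon of Cacna1c-212. Cacna1c also had 10 intronic sites at 1 µg, the most of the 10 genes.

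Slc8a1 (chr17:81373105-81738377, minus strand), the sodium-calcium exchanger, had 21 sites at 1 µg, 8 at 300 ng and 2 at 100 ng. Exon 2 (1830 nt), which holds most of the coding sequence, carried 11 of the 21, and these spread from -2822 to -1196 nt relative to the stop codon. The last exon of Slc8a1-202 (544 nt) carried 4 sites. The other 6 lay farther downstream, in the last exon of Slc8a1-204 (15963 nt), 4 of them from 515 to 630 nt and 2 at 13711 and 13758 nt after the stop codon. The annotation gives no support level for this long form.

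Atp2a2 (chr5:122453513-122502225, minus strand), the calcium pump of the reticulum, had few sites but 1 of the highest rank. It had 3 sites at 1 µg and 1 at each of the 300, 100 and 50 ng inputs. The site at position 122469478, in coding exon 8 (465 nt), was at the highest score of the 1 µg list, which 61 sites shared, and ranked 6 of 8845 at 300 ng, 9 of 1112 at 100 ng and 9 of 248 at 50 ng. This position was also in the mESC list, at the 68.2 percentile of its m6Aboost score, and was the only site of the 10 genes shared by heart and mESCs. The other sites lay at different 3′ ends. In heart, 1 site lay in the last exon of Atp2a2-202 (791 nt), 89 nt after its stop codon, and in mESCs 2 sites lay in the last exon of Atp2a2-201 (1087 nt), at -25 and 63 nt from its stop codon. The remaining heart site lay in an exon of a noncoding transcript, at the 20.9 percentile. The former transcript encodes the shorter pump of heart muscle and the latter the form found in most cells. The mESC pair ranked low in their list, at the 15.4 and 5.97 percentiles.

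Phospholamban, the small membrane protein that inhibits this pump, is encoded by Pln (chr10:53337667-53345987, plus strand). Exon 2 (2231 nt), which makes up 95.6% of Pln-201, held all 11 of its sites at 1 µg. Of these, 1 lay in the 5′ UTR, 1 in the coding sequence and 9 in the 3′ UTR, up to 1785 nt after the stop codon. Both Pln windows shown above were at the highest score of the 1 µg list, and the median percentile of its 11 sites, 98.2, was the highest of the 10 genes. At 300 ng 5 sites remained, the best at rank 44 of 8845, and at 100 and 50 ng there was none.

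Jph2 (chr2:163336242-163397993, minus strand), which encodes junctophilin 2, the tether of the reticulum to the surface membrane, had the most sites of the 10 genes at 100 ng. Its 18 sites at 1 µg compare with 7 in the 300 ng list, 4 in the 100 ng list and 2 in the 50 ng list. The 4 exons of 400 nt or more, which make up 94.9% of its transcript, held all 18, with 6 in exon 1, 3 in exon 2, 2 in exon 4 and 7 in the last exon. A site was found at 15 of the 49 DRACH motifs of Jph2-201 (30.6%, Wilson 95% interval 19.5 to 44.5), the highest share of the 10 genes. Of the 2 sites at 50 ng, the one at the non-DRACH pentamer GGACG in exon 4 was in no other list, so that 1 Jph2 site of the 1 µg list was found at 50 ng, as in Atp2a2, Ryr2 and Cacna1c. Camk2d (chr3:126596302-126846326, plus strand), the calmodulin-dependent kinase that phosphorylates several of these proteins, had 2 sites at 1 µg and 3 at 300 ng, all in the 3′ UTR of its last exon (3569 nt). Only 1 of the 3 was also at 1 µg, and the other 2 were not at a DRACH motif.

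**Figure D2:**
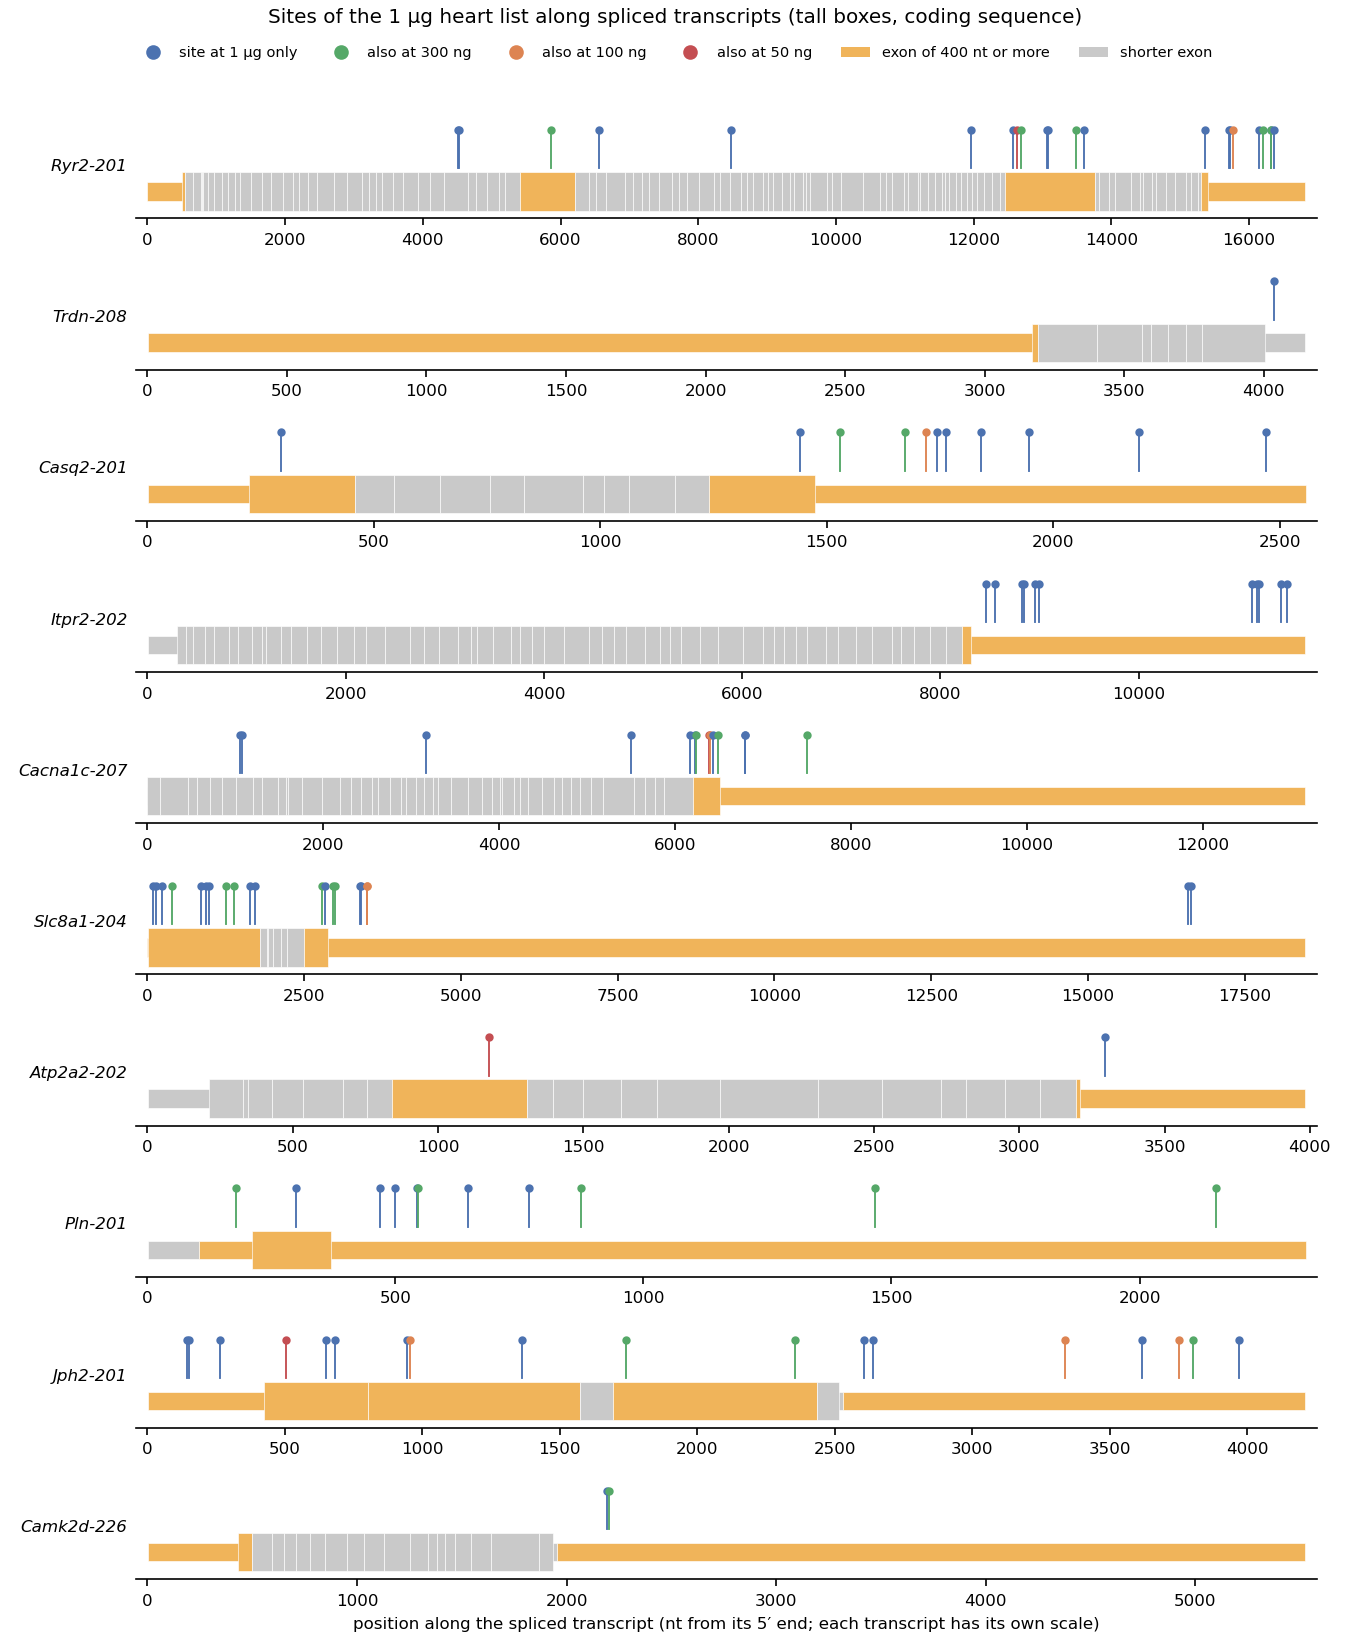
Exonic sites of the 1 µg heart list along 1 spliced transcript of each gene (x axis, nt from the 5′ end, each on its own scale), with exons of 400 nt or more in orange, shorter exons in grey, coding sequence as tall boxes, and site marks coloured by the lowest input at which the position was found. The sites of Ryr2-201 gather in exon 90 and exon 105, those of Itpr2-202 all lie past the stop codon, and those of Slc8a1-204 lie along the coding sequence and in the 3′ UTR, 2 of them near the 3′ end. 1 site each of Ryr2, Cacna1c and Atp2a2 lies outside the transcript drawn.

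Over the 10 genes, 115 of the 116 exonic sites at 1 µg could be placed in a coding transcript. Of these, 60 (52.2%, Wilson 95% interval 43.1 to 61.1) lay in 3′ UTRs, 50 (43.5%, 34.8 to 52.6) in coding sequence and 5 (4.35%, 1.87 to 9.78) in 5′ UTRs. The shares over all coding genes were 49.0%, 48.8% and 2.15%, all inside the intervals of the 10 genes. Within 400 nt of the stop codon lay 41 sites (35.7%, 27.5 to 44.7), below the 45.1% over all coding genes, and 72 (62.6%, 53.5 to 70.9) lay in a last exon against 70.3%. Sites of 1 gene share a transcript and a library, and these intervals cover counting error only.

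Sites were more frequent in long exons than in short ones, in the 10 genes as in the others. Of the 115 placed sites, 103 (89.6%, 82.6 to 93.9) lay in exons of 400 nt or more, and of the 50 coding sites 40 did (80.0%, 67.0 to 88.8). Both shares were below those over all coding genes, 94.2% and 90.6%. The DRACH motifs in the exons give the number of places where a site could lie. In exons of 400 nt or more, 81 of 657 motifs had a site (12.3%, 10.0 to 15.1), against 10 of 744 in shorter exons (1.34%, 0.732 to 2.46), and the intervals did not overlap. In the 8401 other coding genes with a site, the shares were 8.45% and 0.976%. Internal exons showed the same order without the last exons, with 22 of 112 motifs (19.6%, 13.3 to 28.0) against 9 of 712 (1.26%, 0.666 to 2.38), where the other genes had 13.9% and 0.762%. Closer than 100 nt to a splice junction 15 of 757 motifs had a site (1.98%), from there to 200 nt 15 of 89 (16.9%), and farther away 61 of 555. Inputs of the classifier were the sequence around the A, the transcript region, the peak signal relative to its gene and C-to-T changes in reads. The part of the classifier in these shares was not tested.

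**Figure D3:**
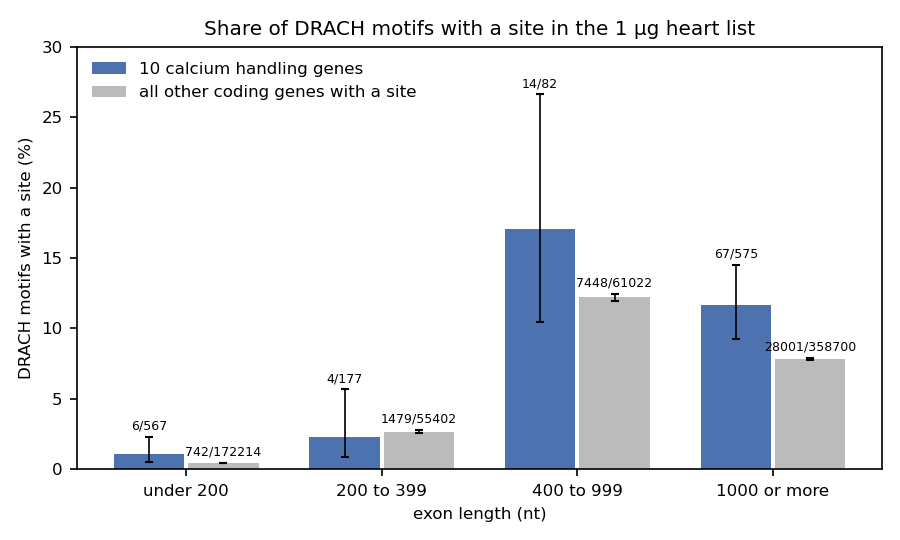
Share of DRACH motifs with a site in the 1 µg heart list (%, y axis) by length of the exon (nt, x axis), for the 10 genes (blue) and all other coding genes with a site (grey), with Wilson 95% intervals as error bars and sites per motifs above each bar. For the 10 genes the share is 1.06% in exons under 200 nt, 2.26% from 200 to under 400 nt, 17.1% from 400 to under 1000 nt and 11.7% at 1000 nt or more.

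Among single genes, measured in the transcript that holds most of their sites, the share of DRACH motifs with a site in exons of 400 nt or more ran from 34.9% in Jph2, 22.7% in Casq2, 17.2% in Ryr2, 16.3% in Pln and 12.1% in Itpr2 down to 1.59% in Camk2d (1 of 63) and 0 of 61 in Trdn. In exons under 400 nt, Ryr2 (5 of 283, 1.77%), Cacna1c (4 of 106, 3.77%) and Trdn (1 of 29) had sites at a motif, and in the other 7 genes no motif of such an exon had one. In Cacna1c the long last exon had a site at 5.43% of its motifs (2.65 to 10.8), an interval that overlapped that of its shorter exons (1.48 to 9.30). Trdn ran in the other order with its single site in a shorter exon, and there and in Camk2d the intervals of both classes overlapped too. The intervals of neighbouring genes in this order overlapped.

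The members' sites ranked high within the 1 µg list. The deposited heart score has no stated scale and was used only for ranks within a list. The median percentile of the 116 sites was 88.9, and 57 of them lay in the top 10% of the list. By gene, the median ran from 98.2 in Pln, 95.5 in Atp2a2, 95.03 in Jph2, 94.9 in Trdn (1 site) and 94.8 in Ryr2, through 91.1 in Slc8a1, 86.1 in Casq2 and 74.5 in Cacna1c, to 57.1 in Camk2d and 16.9 in Itpr2. The sites of the first 5 overlapped in range, so that no order among them can be read. The 27 intronic sites all lay at DRACH motifs, and none was found in another list. At 300, 100 and 50 ng the median percentile of the members' sites was 77.7, 80.4 and 36.1.

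**Figure D4:**
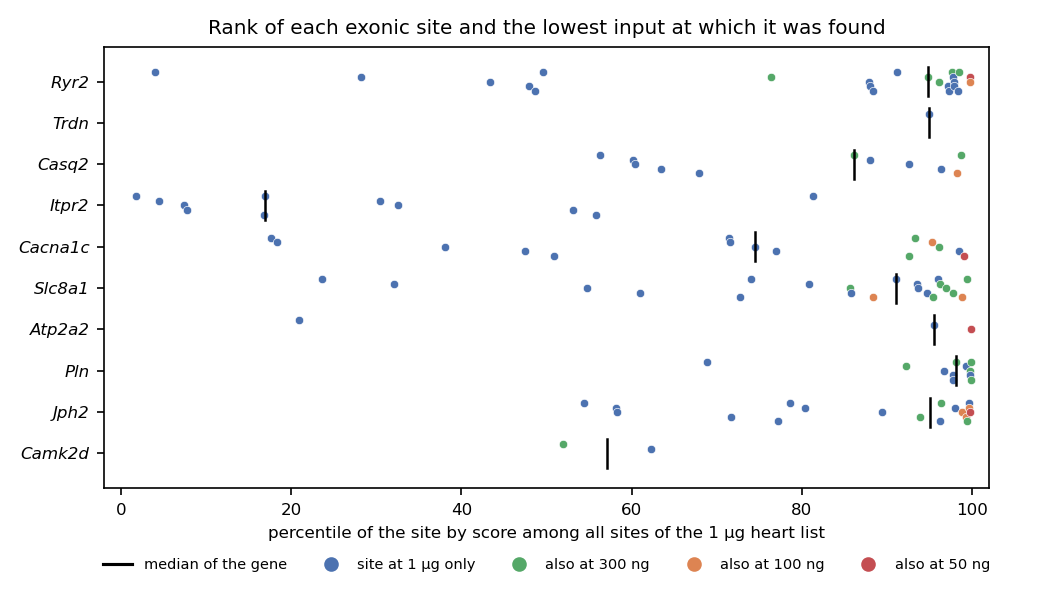
Percentile of each exonic site by score among all sites of the 1 µg heart list (x axis) for each gene (y axis), with the gene's median as a black line and points coloured by the lowest input at which the position was found. Sites also found at lower input sit mostly above the 90th percentile, and the 11 Itpr2 sites run from 1.79 to 81.3 with none found at lower input.

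Almost every member site of a lower input was also a site at 1 µg: 37 of 40 at 300 ng (92.5%; 93.4% for that whole list), 11 of 11 at 100 ng (96.2%) and 4 of 5 at 50 ng (95.6%). In the other direction, 37 of the 116 sites at 1 µg were found at 300 ng (31.9%, 24.1 to 40.8), 11 at 100 ng (9.48%) and 4 at 50 ng (3.45%), against 17.8%, 2.30% and 0.511% of the whole list. Within bands of rank the members' shares were lower, but only in the top 10% was the whole list's share outside their interval. Of the 57 members' sites in the top 10%, 32 were found at 300 ng (56.1%, 43.3 to 68.2), where the whole list had 73.4%, and from the 75th to the 90th percentile 4 of 16 were (25.0%, 10.2 to 49.5) against 37.3%. From the 50th to the 75th percentile 1 of 22 was (4.55%, 0.807 to 21.8) against 12.6%. Below that none of 21 was found, where the whole list had 4.76% from the 25th to the 50th percentile and 2.06% under it, shares too low for 21 sites to show a difference. The sites found at 50 ng as well as 1 µg, 1 each in Atp2a2, Ryr2, Cacna1c and Jph2, all ranked above the 99th percentile at 1 µg.

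The heart and mESC lists shared 1 of these 116 positions (0.862%, 0.152 to 4.72), whereas 32.7% of all sites at 1 µg were also in the mESC list. Marker genes checked the labels of both samples. Of 5 pluripotency markers all had sites in mESCs and only Esrrb in heart (6 sites). Of 8 cardiomyocyte markers 4 had sites in heart at 1 µg, where 38.3% of coding genes had one, and none in mESCs. Ttn had 195 sites, whereas Myh6, Tnnt2 and Mybpc3 had 1 to 2 each, so that the check for heart muscle rests mostly on Ttn. In heart, 4 of 4 endothelial and 4 of 4 fibroblast markers had sites too, 43 and 28 in all, so that sites of other cell types are part of the list.

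Of 56 other calcium handling genes listed, 55 were in the annotation and 38 had exonic sites at 1 µg, 23 at 300 ng, 12 at 100 ng, 6 at 50 ng and 24 in mESCs. Their median was 2 sites at 1 µg. Those with the most were Ahnak (84), Akap6 (25), Pde4d (14), Srl (14) and Asph (12). Ahnak, a very large scaffold protein, also had 18 sites in mESCs, Srl and Asph had 3 each, Pde4d had 1 and Akap6, the anchor protein of protein kinase A at the nuclear envelope, had none. Over the 5 lists, the gene with counts most like those of Ryr2 was Heg1, with the same 23, 8, 1, 1 and 0 sites, followed by Adcy5 (17, 6, 1, 1 and 0) and Itpkb (23, 8, 2, 1 and 0), at distances of 0.55 and 0.58 on the log2(sites + 1) scale.

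The RNA-seq libraries of mESCs show at what level the members were transcribed there, and whether that level changed when Mettl3 was lost. Gene counts per library ran from 22746733 to 27254245. Mettl3, the targeted gene, had 560, 698 and 612 in the WT libraries against 462, 669 and 457 in the KO libraries, or 27.3 ± 1.39 and 19.3 ± 2.95 CPM (counts scaled to effective library size; SD, n = 3). Its log2 fold change was -0.50 ± 0.14 (SE; edgeR quasi-likelihood test, adjusted p = 0.0134), lower in KO without overlap but not past the threshold of 0.01, and counts over the whole gene do not show how the gene was disrupted.

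Atp2a2 was by far the most abundant member in mESCs, at 395, 342 and 376 CPM in WT and 292, 315 and 301 CPM in KO. The KO libraries were all lower, and the log2 fold change of -0.29 ± 0.11 (SE) did not pass the threshold (edgeR adjusted p = 0.0435). Ryr2 followed at 6.62 to 10.1 CPM in WT and 9.31 to 10.5 CPM in KO, and Camk2d at 5.19 to 7.28 CPM and 8.87 to 9.39 CPM. Both had no site in the mESC list, and of the coding genes between 5 and 20 CPM in WT 39.5% had one, against 82.2% at 100 CPM or more, where Atp2a2 lay. The other members were below 5 CPM in every WT library, a level at which few genes had a site: 5.73% from 1 to 5 CPM and 1.04% under 1 CPM. Pln had 0 counts in all 6 libraries, which allows up to 3 counts, or 0.101 to 0.142 CPM, a library, and Trdn had 0 counts in WT and 0, 1 and 1 in KO.

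Of the 8 members that passed the filter on low counts, 3 rose in KO and none fell at an adjusted p of 0.01 (edgeR). Of the 15731 genes tested, 29.7% were called, 17.1% higher and 12.6% lower in KO, and the median log2 fold change of the 8 was 0.93 beside -0.02 over all genes tested. Slc8a1, Jph2, Casq2 and Cacna1c had fewer than 3 WT libraries above 10 counts and so passed the filter through their KO libraries, where they were higher. Of the 3 calls, those of Slc8a1 and Jph2 are therefore on genes that the higher group let through, and the count and median are a description. The members that rose were at low levels. In WT, Slc8a1 had counts of 17, 3 and 10, and in KO of 85, 76 and 101, which is 0.463 ± 0.344 and 3.23 ± 0.599 CPM (SD, n = 3). The groups did not overlap, and the log2 fold change was 2.83 ± 0.47 (SE; edgeR adjusted p = 0.000932). With 1 library left out at a time, it ran from 2.32 without WT replicate 2 (edgeR adjusted p = 0.000879) to 3.50 without WT replicate 1 (edgeR adjusted p = 0.00156). Counts of Itpr2 were 35, 62 and 13 in WT against 134, 366 and 161 in KO, also without overlap, with a log2 fold change of 2.33 ± 0.45 (SE; edgeR adjusted p = 0.00222). Without WT replicate 1 its adjusted p was 0.0122. For Jph2 the WT libraries had 8, 1 and 1 and the KO libraries 26, 22 and 24, a log2 fold change of 2.55 ± 0.60 (SE; edgeR adjusted p = 0.00647). This call was lost when any library other than WT replicate 1 was left out, with adjusted p from 0.0140 to 0.0244, and without WT replicate 1 the log2 fold change was 4.24.

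The other members did not pass. Camk2d was higher in all 3 KO libraries, with a log2 fold change of 0.60 ± 0.19 (SE; edgeR adjusted p = 0.0249), and it passed once same-numbered replicates were blocked (edgeR adjusted p = 0.00819) or without WT replicate 3 (adjusted p = 0.00488). Casq2 counts were 4, 5 and 45 for WT against 33, 19 and 62 for KO, so that 1 WT library overlapped the KO group (log2 fold change 0.79, edgeR adjusted p = 0.433), and without that library, WT replicate 3, the change was 2.86 (adjusted p = 0.00429). Cacna1c (2 to 17 counts in WT, 13 to 31 in KO) and Ryr2 had adjusted p of 0.129 and 0.264 (edgeR).

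**Figure D5:**
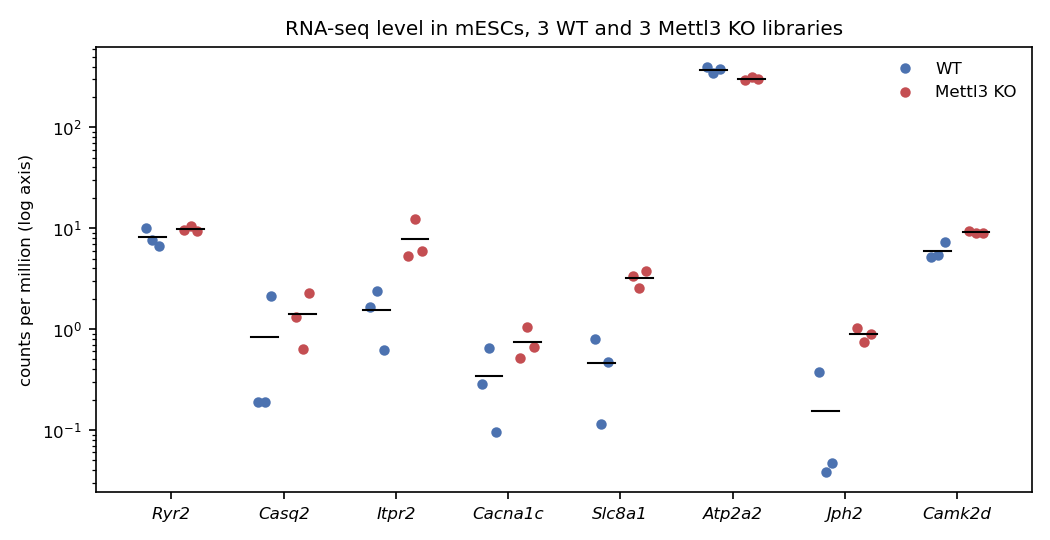
CPM (y axis, log scale) of the 8 members tested in 3 WT (blue) and 3 Mettl3 KO (red) mESC libraries, with group means as black lines. Pln and Trdn, at 0 to 1 counts a library, are left out. Slc8a1, Itpr2 and Jph2 stand higher in KO without overlap, and the 3 KO values of Atp2a2 (292 to 315) lie below its 3 WT values (342 to 395).

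Markers of other cell types were read in the same libraries, where 29.7% of all genes tested were called. The summed level of the 8 cardiomyocyte markers was 45.4 to 92.6 CPM in WT and 175 to 216 CPM in KO, of which Ttn made up most (a mean of 53.9 CPM in WT and 192 CPM in KO), and Ttn alone of the 4 tested was called, higher in KO. Actc1 and Nppa were at 0 counts in all 6 libraries and Myh7 at 0 to 20. Of the 4 endothelial markers, all tested, Cdh5 and Tek were called higher. The summed level of the 4 was 140 to 184 CPM in WT and 148 to 213 CPM in KO. Most of this sum was Pecam1 (a mean of 147 CPM in WT and 144 CPM in KO), which was not called. Cdh5 was at 0 to 1 counts a WT library and 11 to 12 a KO library, so its KO libraries let it through the filter. None of the 2 fibroblast markers tested (of 4 listed) and none of the 5 pluripotency markers was called. The part of these other cell types in the members' changes was not tested. Of the 51 other calcium handling genes tested, 9 rose and 7 fell, against 17.1% and 12.6% of all genes tested, with a median log2 fold change of -0.02. The largest changes among those called were in Cacna1d (0, 2 and 0 counts in WT, 15, 21 and 24 in KO, a ratio of 25.2 with a counting interval of 6.67 to 212), Cacnb2 (log2 fold change 3.66 ± 0.58 SE, edgeR adjusted p = 0.000659) and Jph1, the relative of Jph2 (2.68 ± 0.22 SE, edgeR adjusted p = 1.88e-05). Cacnb2 was low in the WT group, at 4, 0 and 3 counts, beside 36, 32 and 43 for the KO group. Like Slc8a1 and Jph2, Cacna1d and Cacnb2 therefore passed the filter through their KO libraries, and the size of their changes rests on few WT counts.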

How the data were processed

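Sites were taken from the lists deposited by the authors (GRCm38, positions printed 1-based), made with STAR, UMI-tools, PureCLIP and m6Aboost. In the mESC list the deposited score is the m6Aboost score. The heart score, also deposited by the authors, has no stated scale. Gene counts were made by the authors with STAR and HTSeq 0.12.4 and deposited without normalisation. Lines naming no gene (36.7 to 42.7% of entries) were left out.

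A site belonged to a gene when it lay in an exon on the same strand (GENCODE M21, while the authors used a later release), and was placed in the longest well supported coding transcript that held it. Shares have Wilson 95% intervals. The count test was edgeR 4.0.16 under R 4.3.3 (quasi-likelihood fit after filterByExpr and TMM scaling, Benjamini-Hochberg over 15731 genes, adjusted p of 0.01), tested on simulated data. The SE was derived from the fold change and the F value. Libraries with the same replicate number in the labels deviated together from their group means (correlation across genes, which are not independent, 0.22, 0.55 and 0.43 for the 3 pairs). The main test had no block, so its p-values leave this pairing out. A fit with the replicate number as a block (pairing) was an alternative. P-values measure the spread between these libraries, whose separate culture the labels do not state. DESeq2 1.42.0, other scalings, filters and transcripts were alternatives.

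The 10 genes, the other lists and the markers were chosen with earlier results of these data known. Named genes are the 10, Mettl3, the 5 other calcium genes with most sites and the 3 with the largest called change, and the 3 nearest to Ryr2 by site counts. Jph2 at GGACG and Camk2d at 300 ng were named after their values were seen. The HEK293T list and the miCLIP2 reads of the KO were not used here.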

Additional observations from a re-analysis of the deposited data

How the results depend on the processing

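Of 52 alternatives to the main values and counts, 42 left them within the spread or within 1.5 times. By this rule a change from 3 calls to 2 counts as the same. These values are counts, shares and a median, which have no direction to turn. Of 100 alternatives to the fold changes of 8 single members, 0 reversed the sign, 6 lost a call and 5 gained one. Keeping sites above the median score of each list, the members had 2 sites at 50 ng and 1 in mESCs. The share of sites in long exons was 94.8% at a limit of 200 nt, 73.0% at 1000 nt, 71.4% over internal exons and 82.6% in the transcripts with the longest coding sequence. The share of motifs with a site in exons of 400 nt or more was 16.2% for RRACH, a narrower motif, and 8.67% in the transcripts with the most sites. This 8.67% counts the 15963 nt last exon of Slc8a1-204. All choices of transcript for the motif shares were added after seeing the data. So was the use of the transcripts with the most sites for the 3′ UTR and exon length shares.

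In KO against WT, 1 member was called with at least 10 counts required in every library, where fewer members were tested, and 5 at an adjusted p of 0.05 (Atp2a2 and Camk2d added). Leaving out each library in turn gave 2 to 4 calls. With the replicate number as a block (pairing), 4 members were called, Camk2d being added, and no other member's call changed. Over all genes, the calls were 4669, 2761 to 5412 when each library was left out, 7336 at an adjusted p of 0.05 and 6837 with the block. Each heart input is 1 library, and low counts limit Slc8a1, Jph2, Casq2 and Cacna1c in mESCs.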
